A study of Mus musculus with 6 samples.

Results

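The 44 genes described here carry out fatty acid uptake, storage and beta-oxidation in gastrocnemius/plantaris (GP) muscle, a calf muscle pair that is rich in fast-twitch fibres. They were taken by gene symbol, and all 44 were among the 24421 genes of the count files and among the 14180 genes with enough reads to be tested. Bulk RNA-Seq counts came from 3 libraries labelled Ctrl and 3 labelled cKO, each from a different male mouse of 5 months of age, 3 months after tamoxifen, whose strain background is labelled B6C3F1. Mice labelled Ctrl carried the floxed Net39 allele on both chromosomes (Net39 fl/fl) without Cre, and mice labelled cKO carried Net39 fl/fl together with HSACreERT2, a tamoxifen-inducible Cre driven by the human skeletal actin promoter, so that recombination is directed at muscle fibres and not at satellite cells or other cells of the tissue. Both groups received tamoxifen. The comparison asks which of these genes differed in adult muscle between the labelled groups.

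Muscle fibres take up fatty acids released from circulating triglyceride, activate them to acyl-CoA, and either store them as triglyceride in lipid droplets or pass them into mitochondria through the carnitine shuttle. In the mitochondrial matrix, beta-oxidation shortens the acyl chain in repeated cycles, and its electrons reach the respiratory chain through the electron transfer flavoprotein. Slow-twitch and type IIa fibres depend on this route more than type IIb fibres do, and enzymes such as the pyruvate dehydrogenase kinases set the balance between glucose and fatty acid as fuel.

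Net39, an inner nuclear membrane protein listed in the files under its older symbol Ppapdc3, was measured first, because it is the gene the study deleted. It stood at 7.92, 7.75 and 5.93 CPM (counts scaled to a common library size with edgeR's trimmed mean of M values, TMM, and expressed per 1e6 counts) in the libraries labelled Ctrl 1, 2 and 3. In the libraries labelled cKO 1, 2 and 3 it stood at 151, 113 and 138 CPM. The level was therefore high in the libraries labelled knockout and low in those labelled control, a log2 difference of 4.22 (SE 0.17, adjusted p = 0.000161), which goes against the labels. Whether labels or files were exchanged was not tested, counts cover the whole gene rather than its floxed exon, and every direction below is stated for the labels as deposited.

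Library totals were 33860001 to 38201728 counts in the group labelled Ctrl and 39191239 to 48839910 in the group labelled cKO, and the 44 genes together took 0.845% to 1.59% of each library. Fibre-type markers differed between the labelled groups. The summed CPM of 10 slow-fibre genes was 9068 to 15533 in libraries labelled Ctrl, beside 553 to 4133 in those labelled cKO, with 5 of the 10 passing the test higher in libraries labelled Ctrl. The 5 type IIb genes summed to 20440 to 48063 CPM against 76668 to 107805 CPM, with 5 of 5 passing, and both type IIa and IIx genes, Myh2 and Myh1, passed with higher levels in libraries labelled Ctrl. Myh7, the slow myosin heavy chain, was at 3676, 1723 and 2219 CPM in libraries labelled Ctrl and at 494, 974 and 75.3 CPM in those labelled cKO (adjusted p = 0.0742). Myh4, the type IIb myosin heavy chain, was at 15349, 24649 and 36565 CPM against 80134, 57352 and 72862 CPM (adjusted p = 0.0213). Immune markers summed to 225 to 306 CPM against 95.3 to 142 CPM (7 of 10 passed), whereas 0 of 10 adipocyte markers (220 to 275 against 221 to 269 CPM) and 1 of 10 endothelial markers (531 to 563 against 502 to 510 CPM, Vwf) passed, and no marker of these lists was at 0. In bulk RNA, fewer fibres or cells of a type and less RNA per cell cannot be told apart, and the part of these markers in the results below was not tested.

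Most of the pathway did not differ detectably between the labelled groups. By edgeR's quasi-likelihood test, with p-values adjusted over all 14180 genes, Ucp3, Pdk2 and Acsl3 were higher in libraries labelled cKO and Slc27a4 and Cpt1b were higher in those labelled Ctrl at an adjusted p under 0.05. These 3 of 44 genes (6.82%) and 2 of 44 genes (4.55%) stand beside 12.6% and 11.8% of all genes tested in the same directions. When a fold change over 2 was also required, 1 of 44 (Ucp3, 2.27%) was called higher in libraries labelled cKO, where 2.13% of all genes were, and 0 of 44 were called higher in libraries labelled Ctrl, where 3.92% of all genes were. At an unadjusted p under 0.05, 6 genes (13.6%) favoured libraries labelled cKO and 7 (15.9%) favoured those labelled Ctrl, against 19.2% and 19.6% of all genes. DESeq2's Wald test called 1 and 0 at the same thresholds, beside 2.37% and 3.97% of all genes. Without the fold limit it passed 4 (9.09%) and 3 (6.82%), beside 14.9% and 13.2% of all genes. The 3 values of one group lay wholly above those of the other for 7 genes in the direction of the group labelled cKO and 4 in the direction of the group labelled Ctrl, against 22% and 21.9% of all genes tested.

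Fold changes were also small. The median log2 fold change of the 44 genes (labelled cKO over labelled Ctrl) was -0.15, beside -0.015 for all genes tested. Of the 44 genes 31 had a lower and 13 a higher fitted level in libraries labelled cKO, beside 7337 and 6843 of all 14180 genes tested. With total counts in place of TMM, 7 of the 44 changed sign. Their lower and upper quartiles were -0.26 and 0.05, against -0.31 and 0.23 for all genes, and 1 of 44 (2.27%) differed by more than 2-fold against 8.06% of all genes. For 35 of the 44 genes the 95% interval of the log2 fold change lay between -1 and 1, which bounds the difference at 2-fold. The exceptions were Fabp3, Lpl, Cpt1b, Ucp3, Pdk4, Plin4, Plin5, Dgat2 and Acot1.

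**Figure D1:**
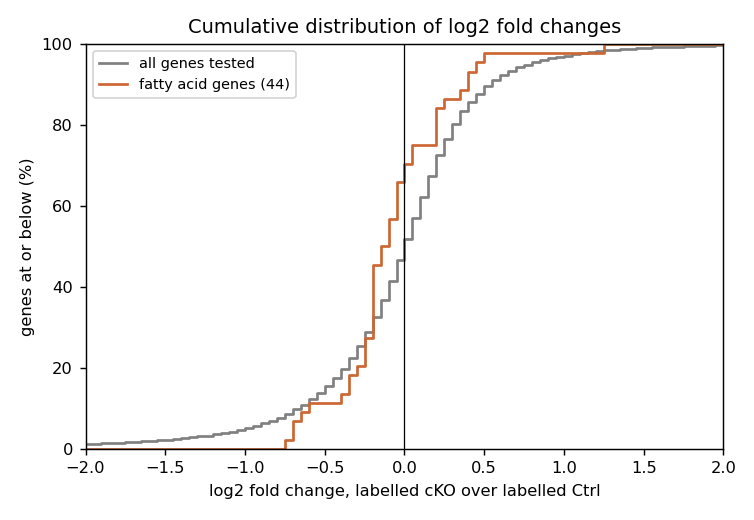
Cumulative share (%) of genes at or below each log2 fold change (labelled cKO over labelled Ctrl) for the 44 fatty acid genes (orange) and all 14180 genes tested (grey). The axis spans -2 to 2, and the orange line reaches its middle at -0.15, left of the grey line's -0.015, and ends at the value of Ucp3, 1.24.

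**Figure D2:**
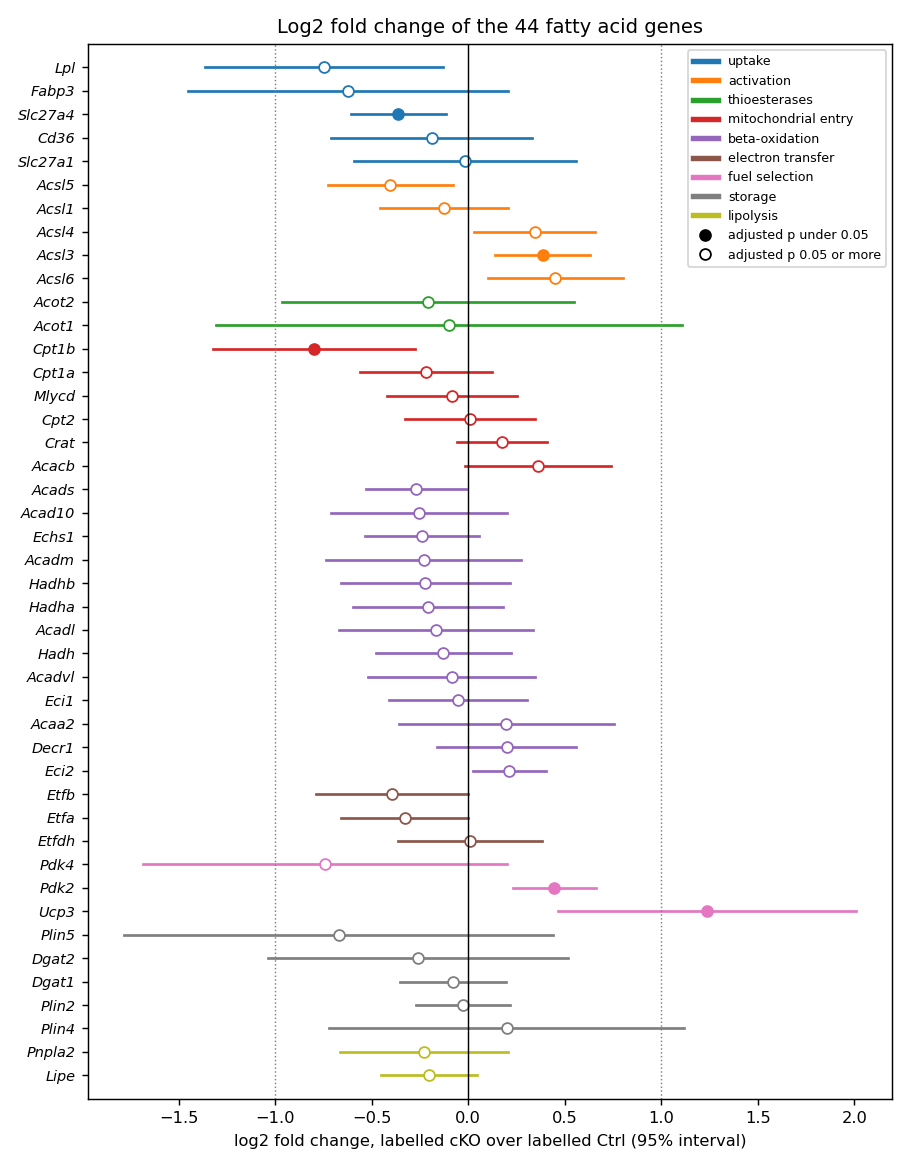
Fitted log2 fold change of each of the 44 genes (points) with its 95% interval (lines), grouped by role, on an axis where values above 0 are higher in libraries labelled cKO. Filled points mark the 5 genes with an adjusted p under 0.05, and dotted lines mark a 2-fold difference, which 1 point, Ucp3, exceeds.

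The calls rested on 3 libraries a group. With Ctrl 1, Ctrl 2, cKO 1 or cKO 3 left out, 0 of the 44 genes passed in either direction, while the shares of all genes passing also fell, to between 5.33% and 6.2% higher in libraries labelled cKO and between 5.46% and 6.57% higher in those labelled Ctrl. Without Ctrl 3, 3 genes (6.82%) passed higher in libraries labelled cKO and 8 (18.2%) higher in those labelled Ctrl, beside 11.8% and 10.6% of all genes. Without cKO 2, 4 (9.09%) and 2 (4.55%) passed, beside 12.3% and 12.5%. Scaling by total counts in place of TMM shifted the median of all genes to -0.27, and Pdk2 and Acsl3, at 0.19 and 0.13, then did not pass (adjusted p = 0.101 and 0.309), while Ucp3, at 0.96 (adjusted p = 0.0457), fell below 2-fold and so lost its call. Ucp3 also lost it in a robust fit (adjusted p = 0.0502). These 2 libraries, Ctrl 3 and cKO 2, were also those whose oxidation genes stood apart from their groups, as given below.

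Fuel selection genes held the largest difference. Ucp3, a mitochondrial inner-membrane carrier whose mRNA is known to follow fatty acid supply, lies at chr7:100472990-100486432 (GRCm38, the assembly also called mm10, plus strand). It was at 118, 88.7 and 84.4 CPM in libraries labelled Ctrl and at 249, 121 and 316 CPM in those labelled cKO. All 3 libraries labelled cKO exceeded all 3 labelled Ctrl, although cKO 2 lay just above Ctrl 1. The log2 fold change was 1.24 (SE 0.33, adjusted p = 0.0342), a 2.36-fold higher level, and with total counts it was 0.96 (adjusted p = 0.0457), under 2-fold. Without Ctrl 1, Ctrl 2, Ctrl 3, cKO 1 or cKO 3 the adjusted p of Ucp3 was 0.0687, 0.104, 0.0856, 0.102 and 0.105, and without cKO 2 the log2 fold change was 1.53 with an adjusted p of 0.00446. Over the 13 alternative fits (other scalings, filters and models, or 1 library left out) its log2 fold change ran from 0.91, under 2-fold, to 1.53.

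Pdk2 encodes a kinase that phosphorylates and inactivates the pyruvate dehydrogenase complex, which limits the entry of glucose carbon into the citric acid cycle. It lies at chr11:95026258-95041354 on the minus strand. Its level was 527, 554 and 526 CPM in libraries labelled Ctrl and 780, 679 and 729 CPM in those labelled cKO, with no overlap and little spread within either group. The log2 fold change was 0.45 (SE 0.09, adjusted p = 0.0153). The adjusted p of Pdk2 was 0.0579 without Ctrl 1, 0.0506 without Ctrl 2, 0.0586 without cKO 1 and 0.0639 without cKO 3.

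Pdk4, the isoenzyme of Pdk2 that fasting and fatty acids induce, did not pass. It was at 2755, 983 and 1026 CPM in libraries labelled Ctrl and at 970, 772 and 1109 CPM in those labelled cKO. A single library, Ctrl 1, stood far above the other 5, and the groups overlapped. The log2 fold change was -0.74 (95% interval -1.68 to 0.20, adjusted p = 0.217), and without Ctrl 1 it was -0.08 (adjusted p = 0.788).

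**Figure D3:**
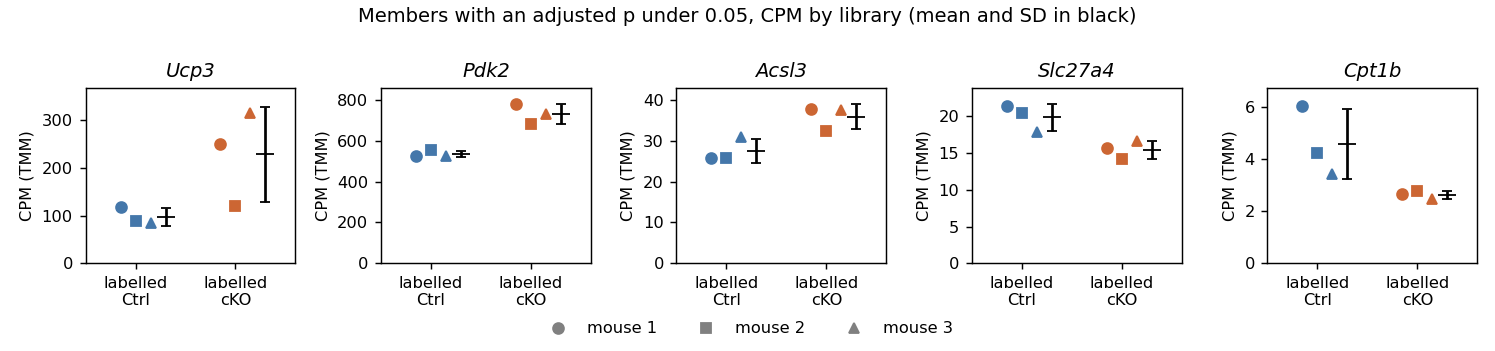
CPM (TMM-scaled, linear axes from 0) of the 5 genes with an adjusted p under 0.05 in each library, with mouse numbers as symbols and the mean and SD of each labelled group in black (n = 3). Ucp3, Pdk2 and Acsl3 lie higher in libraries labelled cKO and Slc27a4 and Cpt1b lie higher in those labelled Ctrl, with cKO 2 the lowest of its group for Ucp3 at 121 CPM.

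Promoter sequences are shown for Ucp3 and Pdk2, the genes of this role that passed, and for the stretch between Hadha and Hadhb, which are described with the oxidation genes. RefSeq (GRCm38.p6) gave windows of 250 bases before to 50 after the gene start for 37 of the 44 genes. Capitals mark AGGTCA, the core of many nuclear receptor binding sites, read on both strands, in the 250 bases before the start of Ucp3 (chr7:100472741-100472990, plus strand) and of Pdk2 (chr11:95041372-95041621, minus strand).
Ucp3: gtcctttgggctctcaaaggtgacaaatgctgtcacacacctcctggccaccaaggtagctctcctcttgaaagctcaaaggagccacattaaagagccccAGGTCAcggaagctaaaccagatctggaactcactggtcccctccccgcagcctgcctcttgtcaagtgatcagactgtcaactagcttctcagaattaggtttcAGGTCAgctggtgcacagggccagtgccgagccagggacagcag
Pdk2: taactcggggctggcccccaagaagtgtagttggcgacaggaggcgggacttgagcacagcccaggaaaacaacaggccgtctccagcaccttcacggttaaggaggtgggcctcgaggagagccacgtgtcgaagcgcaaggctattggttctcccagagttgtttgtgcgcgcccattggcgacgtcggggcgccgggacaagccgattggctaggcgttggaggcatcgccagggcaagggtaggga
The Ucp3 stretch held AGGTCA at 2 places, -149 and -44 bases from the start, and the Pdk2 stretch at 0. Across all windows, AGGTCA was found for 10 of the 37 genes (27%, Acacb, Acadm, Acadvl, Acsl6, Cd36, Cpt1a, Echs1, Plin2, Plin5 and Ucp3), beside 18.1% of all 27025 genes with such windows, counted in the same way. AAGGTCA, which contains AGGTCA, was found for 3 of 37 (8.11% against 5.38%), and 2 copies of AGGTCA with 1 base between them for 0 of 37 (0.0481% of all genes). GGGCGG, the core of the GC box, was found for 24 of 37 (64.9% against 38.2%) and TATAAA for 1 of 37, Acacb (2.7% against 15.7%). A gene with more than 1 window was counted once, with a match in any of them. The 27025 genes include genes with too few reads to be tested here, whereas all 37 were tested, so these shares come from unlike sets.

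Uptake genes had fitted log2 fold changes from -0.75 to -0.02, and 1 of 5 passed, higher in libraries labelled Ctrl, as did 11.8% of all genes. Slc27a4 (chr2:29802634-29817522, plus strand) encodes FATP4, a fatty acid transport protein with acyl-CoA synthetase activity. It was at 21.3, 20.3 and 17.8 CPM in libraries labelled Ctrl and at 15.6, 14.2 and 16.6 CPM in those labelled cKO, a narrow separation without overlap. The log2 fold change was -0.36 (SE 0.10, adjusted p = 0.0431), and the adjusted p of Slc27a4 was 0.143, 0.122, 0.106, 0.0864 and 0.0751 without Ctrl 1, Ctrl 2, cKO 1, cKO 2 or cKO 3.

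Lpl, the lipase that frees fatty acids from lipoproteins at the capillary wall, showed the largest fitted difference of the uptake genes. Its values were 1857, 1407 and 985 CPM in libraries labelled Ctrl and 724, 1092 and 715 CPM in those labelled cKO. Groups were not separate because cKO 2 exceeded Ctrl 3. The log2 fold change was -0.75 (SE 0.26), with an adjusted p of 0.0787 by edgeR and 0.0145 by DESeq2, and Lpl passed in edgeR without Ctrl 3 (-0.95, adjusted p = 0.0310), without cKO 2 (-0.995, adjusted p = 0.0397) and with total counts (-0.99, adjusted p = 0.0371). Lpl was at -0.50 (adjusted p = 0.223) without Ctrl 1, and its adjusted p was 0.157, 0.208 and 0.210 without Ctrl 2, cKO 1 or cKO 3.

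Fabp3, the heart and muscle fatty acid binding protein, had the highest level per length of the 44 genes, with 875 and 568 CPM per kilobase of exon in libraries labelled Ctrl and cKO. By library it was at 827, 864 and 469 CPM against 434, 689 and 280 CPM, again with Ctrl 3 and cKO 2 overlapping (log2 fold change -0.62, adjusted p = 0.236). Over the 13 alternative fits Fabp3 ran from -1.03 to -0.38, with adjusted p-values from 0.0484 to 0.469. Cd36, the fatty acid translocase, and Slc27a1, which encodes FATP1, had log2 fold changes of -0.19 and -0.02, and Slc27a1 was at 0.13 without Ctrl 1 and at 0.19 without cKO 3. The 5 uptake genes summed to 3391, 2862 and 1896 CPM in libraries labelled Ctrl, against 1674, 2426 and 1399 CPM in those labelled cKO.

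Fitted levels of the 5 acyl-CoA synthetases were higher in libraries labelled cKO for 3 and lower for 2. By edgeR 1 passed higher in libraries labelled cKO (20%, beside 12.6% of all genes), and 0 passed higher in those labelled Ctrl (beside 11.8%). Acsl3 (chr1:78657825-78707743, plus strand), which acts at the endoplasmic reticulum and lipid droplets, passed with higher levels in libraries labelled cKO. It was at 25.7, 25.8 and 30.8 CPM against 37.9, 32.3 and 37.5 CPM, with no overlap (log2 fold change 0.39, SE 0.10, adjusted p = 0.0368). The adjusted p of Acsl3 was 0.123, 0.113, 0.113 and 0.121 without Ctrl 1, Ctrl 2, cKO 1 or cKO 3, and 244 of its 4357 exon bases are shared with Utp14b in GENCODE M21.

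Acsl6 (0.45, adjusted p = 0.0654) and Acsl4 (0.34, adjusted p = 0.101), which prefer polyunsaturated fatty acids, also had higher fitted values in libraries labelled cKO but did not pass. Acsl6 passed by DESeq2 (adjusted p = 0.0267) and in edgeR without cKO 2 (0.57, adjusted p = 0.0195), and Acsl4 without Ctrl 3 (0.51, adjusted p = 0.0106). Over the 13 alternative fits the lowest values of Acsl6 and Acsl4 were 0.19 and 0.09, and their highest adjusted p-values 0.244 and 0.620. Acsl5 had a log2 fold change of -0.40 (adjusted p = 0.0729) and passed without cKO 2 (adjusted p = 0.0311) and with total counts (adjusted p = 0.0269). Its highest value over the same fits was -0.35, and its highest adjusted p 0.206. Acsl1, the main synthetase feeding oxidation in muscle and the most abundant of the 5 per length (42.3 and 38.8 CPM per kilobase), was at -0.13 (95% interval -0.46 to 0.20). The thioesterases Acot1 and Acot2, which split acyl-CoA again and are encoded by adjacent, closely related genes on chromosome 12 that can share reads, were at -0.10 and -0.21. Acot1 had the lowest level per length of the 44 genes (0.340 and 0.319 CPM per kilobase).

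Mitochondrial entry genes gave 1 of 6 that passed, higher in libraries labelled Ctrl (16.7%, beside 11.8% of all genes in that direction). Cpt1b encodes the muscle form of carnitine palmitoyltransferase 1, the regulated step of the carnitine shuttle, and lies at chr15:89416405-89425863 on the minus strand. It was listed at 6.05, 4.25 and 3.45 CPM in libraries labelled Ctrl and at 2.65, 2.78 and 2.48 CPM in those labelled cKO, without overlap (log2 fold change -0.80, SE 0.22, adjusted p = 0.0397). In GENCODE M21, 2744 of its 3372 exon bases are shared with Gm44502, a Chkb-Cpt1b read-through gene. Chkb, the partner in that read-through, had raw counts of only 2 to 9 per library. Cpt1a, the liver form, exceeded Cpt1b in every library (labelled Ctrl 16.4 to 19.4 CPM, labelled cKO 13.7 to 18.9 CPM). No row for Gm44502 was used here, and the annotation behind the counts is not given in the sources used here. How the shared reads were counted, and so how much of the Cpt1b level the listed values hold, was not tested. The adjusted p of Cpt1b was 0.104, 0.0817, 0.105, 0.0646 and 0.121 without Ctrl 1, Ctrl 2, cKO 1, cKO 2 or cKO 3.

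The other entry genes did not pass with TMM scaling. Cpt1a, the liver form of the enzyme, was at -0.22 (-0.48 with total counts, adjusted p = 0.0432), and Cpt2, which completes the shuttle on the matrix side, at 0.01. Acacb, the acetyl-CoA carboxylase whose product malonyl-CoA inhibits CPT1, was at 461, 501 and 390 CPM in libraries labelled Ctrl and at 701, 482 and 555 CPM in those labelled cKO, where cKO 2 overlapped the other group (0.36, adjusted p = 0.143). Mlycd, which degrades malonyl-CoA, was at -0.08, and Crat, which buffers acetyl-CoA with carnitine, at 0.18 (-0.081 with total counts) with the groups not overlapping (adjusted p = 0.234).

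None of the 13 beta-oxidation genes passed by edgeR or by DESeq2, with log2 fold changes from -0.27 (Acads) to 0.21 (Eci2). By edgeR, 12.6% of all genes passed higher in libraries labelled cKO and 11.8% higher in those labelled Ctrl. At an unadjusted p under 0.05, 1 was higher in libraries labelled cKO (Eci2) and 1 in those labelled Ctrl (Acads), beside 19.2% and 19.6% of all genes. The acyl-CoA dehydrogenases, which catalyse the first step for chains of different length, were at -0.09 (Acadvl), -0.17 (Acadl), -0.23 (Acadm), -0.27 (Acads) and -0.25 (Acad10). Hadha and Hadhb, the subunits of the trifunctional protein, were at -0.21 and -0.22, and the matrix enzymes Echs1, Hadh and Acaa2 at -0.24, -0.13 and 0.20. The auxiliary enzymes for unsaturated chains, Eci1, Eci2 and Decr1, were at -0.05, 0.21 and 0.20. With total counts Eci2, Decr1 and Acaa2 turned to -0.044, -0.043 and -0.043, and Acads (-0.52, adjusted p = 0.0260) and Echs1 (-0.49, adjusted p = 0.0362) passed. Echs1 also passed without Ctrl 3 (-0.35, adjusted p = 0.0463). Over the 13 alternative fits the highest values of Acads and Echs1 were -0.20 and -0.13, and their highest adjusted p-values 0.286 and 0.518. For each of the 13, the 95% interval lay within 2-fold in both directions.

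The electron transfer genes followed, with 0 of 3 passing by edgeR or by DESeq2. Of all genes, 12.6% passed by edgeR higher in libraries labelled cKO and 11.8% higher in those labelled Ctrl. Etfa and Etfb, the subunits of the electron transfer flavoprotein, were at -0.33 and -0.39 (adjusted p = 0.127 and 0.128), both at an unadjusted p under 0.05, and Etfdh, which hands the electrons to ubiquinone, was at 0.01. Both Etfa and Etfb passed, higher in libraries labelled Ctrl, when Ctrl 3 was left out (-0.44 and -0.54, adjusted p = 0.0429 and 0.0371) and with total counts (adjusted p = 0.0352 and 0.0403). Over the 13 alternative fits their highest values were -0.25 and -0.29, and their highest adjusted p-values 0.323 and 0.329. In GENCODE M21, 678 of the 1164 exon bases of Etfb and 1151 of the 2686 of Acadvl are shared with other genes.

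Within the labelled groups these genes shared a common order of libraries. Summed CPM of the 13 beta-oxidation genes was 3531, 3436 and 2590 in libraries labelled Ctrl and 2739, 3524 and 2423 in those labelled cKO. The sums of the 3 electron transfer genes were 762, 722 and 549 CPM against 547, 656 and 505 CPM. The library labelled cKO 2 was thus near Ctrl 1 and Ctrl 2 in beta-oxidation, and Ctrl 3 was near cKO 1 and cKO 3.

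For 11 of the 13 beta-oxidation genes, cKO 2 was the highest of its group and Ctrl 3 the lowest of its group, the exceptions being Acad10 and Eci2. The same held for 3 of 3 electron transfer genes, for 24 of the 44 genes in all and for 11.5% of all genes tested. These genes share the same 6 libraries, so this is a description without a test. Acaa2, the thiolase of the last step, had the highest ratio of highest to lowest library of the 13, 2.06, with 167, 168 and 109 CPM in libraries labelled Ctrl and 151, 225 and 133 CPM in those labelled cKO. Among slow-fibre markers cKO 2 was the highest of its group for 10 of 10 and Ctrl 3 the lowest for 8 of 10, beside 38.2% and 35.3% of all genes. The same counts were 8 and 0 of 10 for immune markers, 6 and 3 of 10 for adipocyte markers and 5 and 5 of 10 for endothelial markers. They were 0 and 0 of 5 for type IIb markers, for which Ctrl 1 was the lowest of its group in 5 of 5, and 1 and 2 of 2 for type IIa and IIx markers. The summed slow-fibre level in cKO 2, 4133 CPM, stayed below the 9068 CPM of Ctrl 3. The part of these markers in the order of libraries was not tested.

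**Figure D4:**
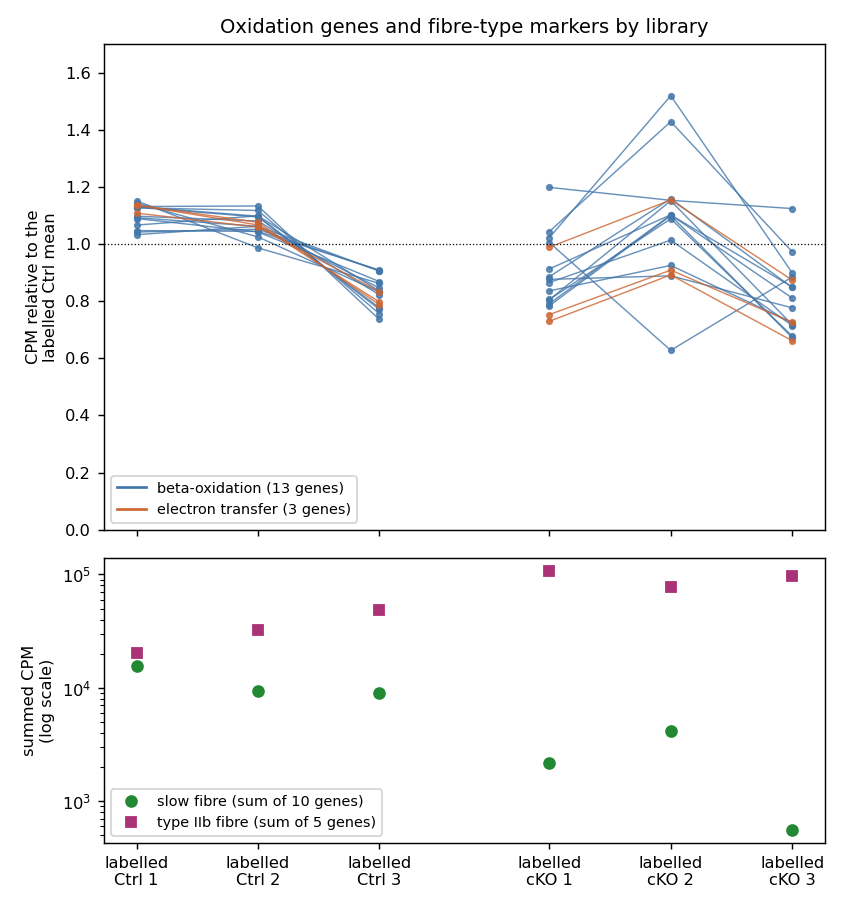
Upper panel, CPM of each beta-oxidation gene (blue) and electron transfer gene (orange) in each library, relative to the mean of the 3 libraries labelled Ctrl (dotted line at 1). Lower panel, summed CPM of slow-fibre and type IIb markers on a log axis. Within the libraries labelled Ctrl all 16 lines are lowest at Ctrl 3, and within those labelled cKO 14 of 16 are highest at cKO 2, where slow-fibre markers were the highest of the libraries labelled cKO at 4133 CPM.

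Hadha and Hadhb are transcribed away from each other on chromosome 5, and their RefSeq windows overlap by 228 bases (chr5:30155003-30155230). The stretch between the ends of both genes in GENCODE M21 (chr5:30155163-30155247, plus strand, toward Hadhb) is shown with capitals for bases that lie in both windows.
Hadha-Hadhb: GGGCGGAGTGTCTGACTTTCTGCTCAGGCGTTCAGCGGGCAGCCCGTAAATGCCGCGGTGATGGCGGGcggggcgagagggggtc
The transcripts of the subunits kept similar proportions across libraries. Hadha was at 683, 672 and 511 CPM in libraries labelled Ctrl and at 538, 631 and 445 CPM in those labelled cKO. Hadhb was at 443, 431 and 343 CPM against 327, 442 and 275 CPM. The ratio of Hadha to Hadhb CPM was lowest in cKO 2, at 1.43, and highest in cKO 1, at 1.65.

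Storage and lipolysis genes had 0 of 7 passing by edgeR or by DESeq2, and 0 of 7 at an unadjusted p under 0.05. Of all genes, 12.6% and 11.8% passed by edgeR higher in libraries labelled cKO and Ctrl, and 19.2% and 19.6% had such an unadjusted p. Dgat1 and Dgat2, which complete triglyceride synthesis, were at -0.08 and -0.26. The lipid droplet coat genes Plin2, Plin4 and Plin5 were at -0.03, 0.20 and -0.67, and the lipases Pnpla2 (adipose triglyceride lipase) and Lipe (hormone-sensitive lipase) at -0.23 and -0.20. Pnpla2 passed without Ctrl 3 (-0.43, adjusted p = 0.0171) and Lipe with total counts (-0.46, adjusted p = 0.0285). Over the 13 alternative fits their highest values were -0.08 and -0.09, and their highest adjusted p-values 0.810 and 0.541.

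Wide spread within groups limited several of these values. Plin5, which tethers droplets to mitochondria, was at 51.7, 43.5 and 13.5 CPM in libraries labelled Ctrl and at 29.7, 24.2 and 14.6 CPM in those labelled cKO. Dgat2 was at 89.7, 89.8 and 36.9 CPM against 63.6, 70.4 and 46.6 CPM. Ctrl 3 was the lowest of all 6 libraries for Plin5 and Dgat2, and without it Plin5 passed at -1.06 (adjusted p = 0.0395), whereas without Ctrl 1 it was at -0.33 (adjusted p = 0.702). Plin4 was at 648, 566 and 296 CPM against 843, 320 and 569 CPM, so that neither group was separate. Adipocytes express many of these genes too. Of the 10 adipocyte markers, Ctrl 1 was the highest of its group for 5 and Ctrl 3 the lowest for 3, and the part of adipocytes in these values was not tested.

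**Figure D5:**
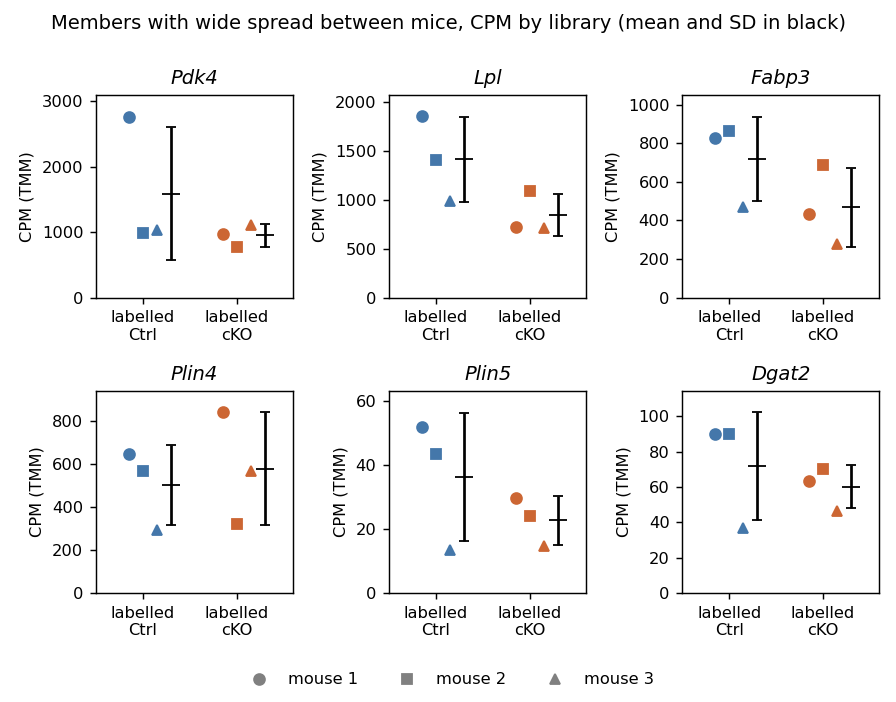
CPM (TMM-scaled, linear axes from 0) in each library of 6 of the 7 genes that did not pass and whose 95% interval reached beyond 2-fold, with mouse numbers as symbols and the mean and SD of each labelled group in black (n = 3). Ctrl 1 stands alone for Pdk4 at 2755 CPM, and Ctrl 3 is the lowest of its group for Lpl, Fabp3, Plin4, Plin5 and Dgat2.

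Of 103 further genes of fatty acid transport, acyl-CoA handling, peroxisomal oxidation, lipid storage and regulation, 92 were tested. By the same test 13 passed higher in libraries labelled cKO (14.1%) and 12 higher in those labelled Ctrl (13%), with a median log2 fold change of -0.08. Lpin1, a phosphatidate phosphatase of triglyceride synthesis and a transcriptional coregulator, was the only one called higher in libraries labelled cKO (1.09% of the 92, beside 2.13% of all genes). It was at 228, 294 and 296 CPM against 690, 435 and 525 CPM (log2 fold change 1.01, SE 0.19, adjusted p = 0.0111). At 2.02-fold Lpin1 was only just over the fold limit. Total counts moved the median of all genes from -0.015 to -0.27, and values of these further genes with that scaling are not given here.

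Called higher in libraries labelled Ctrl, by adjusted p and fold change together, were 3 of these genes (3.26%, beside 3.92% of all genes). Ppara, the nuclear receptor that controls many fatty acid oxidation genes, was at 122, 85.9 and 49.4 CPM against 38.2, 35.1 and 25.3 CPM (-1.39, SE 0.32, adjusted p = 0.0214). Esrrg, an orphan nuclear receptor of oxidative fibres, was at 121, 94.3 and 96.6 CPM against 28.4, 49.2 and 22.5 CPM (-1.64, SE 0.28, adjusted p = 0.00839). Acss1, the mitochondrial acetyl-CoA synthetase, was at 147, 117 and 119 CPM against 40.4, 64.5 and 30.3 CPM (-1.50, SE 0.26, adjusted p = 0.00909). All 3 were without overlap between groups, and the slow-fibre and type IIb markers given above differed between the same libraries.

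Beside the 12.6% and 11.8% of all genes passing in each direction, peroxisomal oxidation had 4 of 13 tested genes passing higher in libraries labelled cKO and 2 higher in those labelled Ctrl, and triglyceride storage and release 4 and 0 of 22. The regulators gave 1 and 4 of 17, acyl-CoA handling 1 and 3 of 14, further mitochondrial oxidation genes 2 and 3 of 15, and uptake and transport 1 and 0 of 11.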

How the data were processed

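Bulk RNA-Seq was performed on GP muscle from 6 mice, 3 labelled Ctrl and 3 labelled cKO. According to the methods and the submitters' processing notes, the authors checked reads with FastQC 0.11.8, used Trimmomatic 0.39 for trimming and HISAT2 2.1.0 for alignment to mm10, and counted reads with featureCounts 1.6.2. The deposited values are raw counts per gene symbol, 1 library per file. The gene annotation and the use of strand in counting are not given in the sources used here.

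Counts were filtered with filterByExpr, scaled by TMM and tested in R 4.3.3 with edgeR 4.0.16 (glmQLFit and glmQLFTest, Benjamini-Hochberg over 14180 genes). Genes passed at an adjusted p under 0.05 and were called when the fold change was also over 2. Standard errors were taken from the F statistic. An exact permutation test of 3 against 3 cannot give a p under 0.1 and was not used for calls. Libraries of the same group differed beyond counting noise and were treated as separate mice. The scripts were tested on simulated data.

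All 44 genes are reported. Genes with an adjusted p under 0.05 are given in every library, the others by fold change, with the libraries of those whose spread or role is described, chosen after their values were seen. Other pathway genes are named where called. The members and all gene lists were chosen with earlier results of these data known. Exon lengths and positions came from GENCODE M21 (GRCm38) and promoters from RefSeq. Alternatives were DESeq2 1.42.0 (size factors and Wald test), total counts, other filters, a robust fit, glmTreat, the mouse number as a block and each library left out.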

Additional observations from a re-analysis of the deposited data

How the results depend on the processing

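Ppapdc3 kept its direction and passed under all 13 alternatives run (3.95 with total counts, 4.10 to 4.31 with 1 library left out). Total-count scaling moved the all-gene median log2 fold change from -0.015 to -0.27, moved the share of passing genes that were higher in libraries labelled cKO from 51.7% to 14.2%, and that of called genes from 35.2% to 13.3%. With it the median of the 44 genes was -0.39 (-0.12 relative to all genes), 1 gene (2.27%) passed higher in libraries labelled cKO and 10 (22.7%) higher in those labelled Ctrl, beside 4.75% and 28.7% of all genes, and 0 and 1 (Cpt1b) were called, beside 1.11% and 7.21%. Ucp3 was then at 0.96, under 2-fold. Pdk2 and Acsl3 were then at 0.19 and 0.13 and did not pass, although they stood 0.46 and 0.40 above the median of all genes. Acaa2 (-0.043), Decr1 (-0.043), Eci2 (-0.044), Crat (-0.081), Plin4 (-0.088), Cpt2 (-0.24) and Etfdh (-0.24) changed sign with total counts.

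Correlations between libraries of the same mouse number, after the mean of each labelled group was taken off, were 0.08, -0.24 and -0.01. Those between libraries of different numbers ran from -0.23 to 0.22. With 3 libraries a group such values constrain one another, so they cannot decide whether the mouse numbers pair the samples. With the mouse number as a replicate block, 0 genes passed higher in libraries labelled cKO and 1 higher in those labelled Ctrl (Fabp3, -0.67), 0 were called, and Acot1 was at 0.0036. The shares of all genes passing fell to 6.54% and 6.85%, and 1.66% and 3.16% were called. Ucp3, Acsl3 and Pdk2 had adjusted p-values of 0.0571, 0.0566 and 0.0626 in that fit, and Cpt1b and Slc27a4 of 0.0682 and 0.104.

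A robust fit gave 0 called genes higher in libraries labelled cKO (Ucp3, adjusted p = 0.0502) and 2 passing, beside 2.05% and 12.5% of all genes, no low-count filter gave 1 passing gene higher in libraries labelled Ctrl (Slc27a4, adjusted p = 0.0578, was lost; 8.04% of all genes), DESeq2's Wald test gave 3, and a glmTreat test against a fold change of 1.2 gave 0 and 0, beside 4.77% and 5.24% of all genes. With 1 library left out, 0 to 1 genes were called in either direction (of all genes 1.2% to 2.69% higher in libraries labelled cKO and 2.75% to 4.75% higher in those labelled Ctrl), 0 to 4 passed higher in libraries labelled cKO and 0 to 8 higher in those labelled Ctrl, and the median ran from -0.26 to -0.06.

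Genes near 0 changed sign in at least 1 of these fits with a library left out. Their values there spanned the following ranges. Acaa2 ran from -0.076 to 0.33, Decr1 from -0.0046 to 0.29, Acadvl from -0.25 to 0.0091, Eci1 from -0.22 to 0.062, Cpt2 from -0.13 to 0.10, Etfdh from -0.13 to 0.11 and Mlycd from -0.22 to 0.057. Plin2 ran from -0.10 to 0.087, Plin4 from -0.19 to 0.47, Slc27a1 from -0.22 to 0.19, Acot1 from -0.50 to 0.44 and Acot2 from -0.44 to 0.28. The causes of these shifts were not tested.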
